A study of Mus musculus with 2 samples.

Results

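Icos-positive CD4 T cells were 287 of the 20753 cell barcodes that passed filtering in 2 single-cell RNA libraries of mouse liver, 161 in the CCl4+IPA library and 126 in the CCl4 library. They were chosen by their own RNA counts. A barcode needed at least 500 UMIs (unique molecular identifiers, which count RNA molecules), at least 300 genes and under 20% mitochondrial UMIs. It also needed at least 2 UMIs of Cd3d, Cd3e and Cd3g together, at least 1 of Cd4 and at least 1 of Icos, and 0 of Cd8a, Cd8b1, Foxp3, Cd79a, S100a8 and Lyz2. Because Icos and Cd4 were part of the choice, their presence in these cells is a description and not a finding. The livers were fibrotic after CCl4 (carbon tetrachloride, a hepatocyte toxin used to produce liver fibrosis), which both groups received. The first group also received IPA (indole propionic acid, a tryptophan metabolite made by gut bacteria), and the second received CCl4 without it. Strain, sex, age, doses and the number of animals behind each library are not given in the sources used here. Each group is 1 library, so no difference below has a replicate check and no test between the groups was possible. The 95% intervals given are exact (Poisson for counts, Clopper-Pearson for shares, conditional binomial for ratios) and cover counting error only.

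ICOS, the inducible T cell costimulator (Icos, ENSMUSG00000026009), is a receptor of the CD28 family that T cells display after their antigen receptor is engaged. Its ligand, encoded by Icosl, is carried by B cells, dendritic cells and macrophages, and ICOS signals mainly through phosphoinositide 3-kinase and the transcription factor Maf. ICOS is known from T follicular helper cells, from regulatory T cells and from effector and memory CD4 T cells of inflamed tissues. Cd5 and Cd6 encode related surface receptors that most T cells carry and that tune antigen receptor signalling.

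The members had 645631 UMIs in all in the CCl4+IPA library and 585400 in the CCl4 library, with medians of 3376 and 4279 UMIs per cell and 1555 and 1661 genes. The cells of the CCl4+IPA library were thus shallower, as were all its barcodes (median 2772 UMIs, against 3195 in the CCl4 library). Their median mitochondrial share was 1.70% in the CCl4+IPA library and 3.77% in the CCl4 library. The 18S ribosomal RNA gene Rn18s-rs5 had 12221 CPM (UMIs of a gene per 1000000 UMIs of the population) in members of the CCl4+IPA library and 82557 CPM in those of the CCl4 library. Across the 6708 genes with at least 20 UMIs in the members, the median log2 ratio of CCl4+IPA over CCl4 was 0.21, and ratios between the libraries are to be read against that shift. Of the barcode sequences, 23 occurred in both libraries and none of these was a member. Scrublet, a doublet caller, marked 1 member in each library.

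The 6 genes required at 0 UMIs removed a large share of the candidates. Of 406 barcodes with CD3, Cd4 and Icos UMIs in the CCl4+IPA library, 245 (60.3%) had a UMI of at least 1 of them, and of 257 in the CCl4 library 131 (51.0%) did. Foxp3, the lineage factor of regulatory T cells, was found in 117 and 59 of them. S100a8, an abundant neutrophil gene, was found in 107 and 52, and in 80 and 42 of those as a single UMI. S100a8 was also found in 21.1% of B cells of the CCl4+IPA library and 20.0% of those of the CCl4 library, cells that should lack it. Just outside the limits, 4 and 2 barcodes had 1 CD3 UMI in place of 2, and 144 and 124 had every other property but 0 Icos UMIs. These 268 Icos-zero CD4 T cells are the closest comparison population below.

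Members made up 1.54% of filtered barcodes in the CCl4+IPA library (161 of 10459, 95% interval 1.31% to 1.79%) and 1.22% in the CCl4 library (126 of 10294, 1.02% to 1.46%), a ratio of 1.26 with an interval of 0.990 to 1.60. Set against Foxp3-zero CD4 T cells alone, they were 52.8% of 305 cells in the CCl4+IPA library and 50.4% of 250 cells in the CCl4 library. That ratio was 1.05, with an interval of 0.824 to 1.33, which includes 1. The share of CD4 T cells with an Icos UMI was therefore not distinguishable between the libraries at this depth. When every cell was thinned to 1500 UMIs and the choice made again, the shares were 30.2% (61 of 202) and 30.1% (44 of 146). Barcodes with at least 2 CD3 UMIs were 32.6% of the CCl4+IPA library and 27.9% of the CCl4 library.

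The amount of Icos per cell differed more than the share of cells carrying it. In the CCl4+IPA library 62 members (38.5%) had 1 Icos UMI, 25 had 2, 19 had 3 and 55 (34.2%) had 4 or more. In the CCl4 library 66 (52.4%) had 1, 28 had 2, 14 had 3 and 18 (14.3%) had 4 or more. The highest member had 15 Icos UMIs in the CCl4+IPA library and 11 in the CCl4 library. Members with 4 or more Icos UMIs were thus a larger share in the CCl4+IPA library, whose members were the shallower ones. When members were defined by at least 2 Icos UMIs, their share of filtered barcodes was 1.62 times as high in the CCl4+IPA library.

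**Figure D1:**
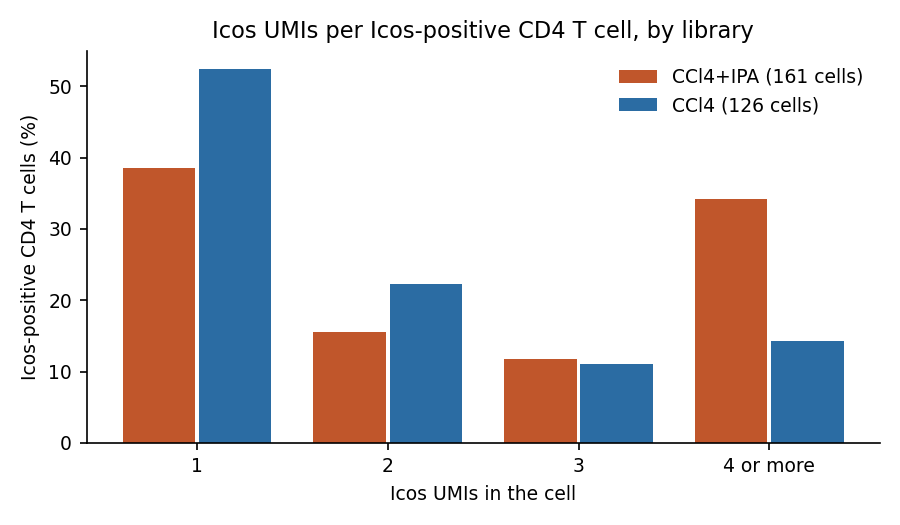
Share of Icos-positive CD4 T cells (y axis, percent of the members of a library) with 1, 2, 3 or 4 and more Icos UMIs (x axis), in the CCl4+IPA library (161 cells) and the CCl4 library (126 cells). Cells with 4 or more Icos UMIs were 34.2% of members in the CCl4+IPA library and 14.3% in the CCl4 library.

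Summed over members, Icos had 488 UMIs (756 CPM) in the CCl4+IPA library and 255 UMIs (436 CPM) in the CCl4 library, a ratio of 1.74 (1.49 to 2.03). Over all gated Foxp3-zero CD4 T cells, which includes those without an Icos UMI and so does not depend on the Icos condition, the level was 443 CPM in the CCl4+IPA library and 243 CPM in the CCl4 library (ratio 1.83, 1.57 to 2.14). The same direction was seen in other gated populations, B cells among them. Foxp3-positive CD4 T cells had 737 CPM in the CCl4+IPA library and 492 CPM in the CCl4 library. CD8 T cells had 161 CPM and 72.8 CPM (ratio 2.21), and NK cells 60.5 CPM and 34.6 CPM (ratio 1.75). B cells, which should lack Icos, had a UMI in 0.932% and 0.414% of cells at median depths of 2425 and 2894.5 UMIs. Their Icos level was 4.32 CPM and 1.30 CPM, a ratio of 3.31 (1.73 to 6.70). The gated Foxp3-zero CD4 T cells, not chosen on Icos, were thus far above the B cell level in both libraries. Members were chosen on Icos, so this does not show whether a single Icos UMI in a member was free RNA. The part of free RNA in the difference between the libraries was not tested.

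Of the receptors that work beside ICOS, Cd28, which gives the primary costimulatory signal, had 658 UMIs (1019 CPM) in members of the CCl4+IPA library and 421 UMIs (719 CPM) in those of the CCl4 library, a ratio of 1.42 (1.25 to 1.61). Ctla4, the inhibitory receptor that competes with CD28 for its ligands, had 372 CPM and 296 CPM (1.26, 1.03 to 1.54). In Foxp3-positive CD4 T cells, which were not chosen on Icos, Ctla4 had 1809 CPM and 1186 CPM (ratio 1.53, 1.32 to 1.77). The ligand gene Icosl had 6 UMIs in members of the CCl4+IPA library and 2 in those of the CCl4 library.

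The marker genes Cd5 and Cd6 were near the same level in members and in Icos-zero CD4 T cells. Cd5 had 302 CPM in members and 297 CPM in Icos-zero cells of the CCl4+IPA library, and 265 CPM in members and 217 CPM in Icos-zero cells of the CCl4 library. Cd6 was 1.15 and 1.06 times as high in members. With every cell thinned to 1500 UMIs, Cd5 was found in 29.4% of members and 33.1% of Icos-zero cells in the CCl4+IPA library, and in 26.6% of members and 28.7% of Icos-zero cells in the CCl4 library. It was found in 0.475% and 0.228% of thinned B cells. Cd5 and Cd6 thus marked T cells here, while the word activated rests on other genes.

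Genes of activated and memory CD4 T cells were higher in the members than in Icos-zero CD4 T cells of the same library. Cd44, the hyaluronan receptor that marks antigen-experienced T cells, had 204 CPM in members and 90.1 CPM in Icos-zero cells of the CCl4+IPA library, and 217 CPM in members and 105 CPM in Icos-zero cells of the CCl4 library. S100a4, a calcium-binding protein of memory T cells, was 2.07 and 2.66 times as high in members, and Ctla4 2.11 and 2.93 times. Maf, the transcription factor downstream of ICOS, was 1.66 and 1.86 times as high. Cd40lg, which encodes the helper ligand for CD40 on B cells, was 2.43 and 1.52 times as high. Il2ra, the alpha chain of the interleukin-2 receptor, was 1.82 and 4.58 times as high, at 68.2 CPM and 78.6 CPM in members. However, 1 member held 17 of its 44 UMIs in the CCl4+IPA library, and 1 held 8 of 46 in the CCl4 library. No ratio over Icos-zero cells without these members is given, so the Il2ra difference in the CCl4+IPA library is uncertain. Cd69, an early activation antigen, was 1.39 times as high in the CCl4+IPA library (1.20 to 1.60) and 1.01 times in the CCl4 library (0.862 to 1.17), which is within counting error of equal.

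**Figure D2:**
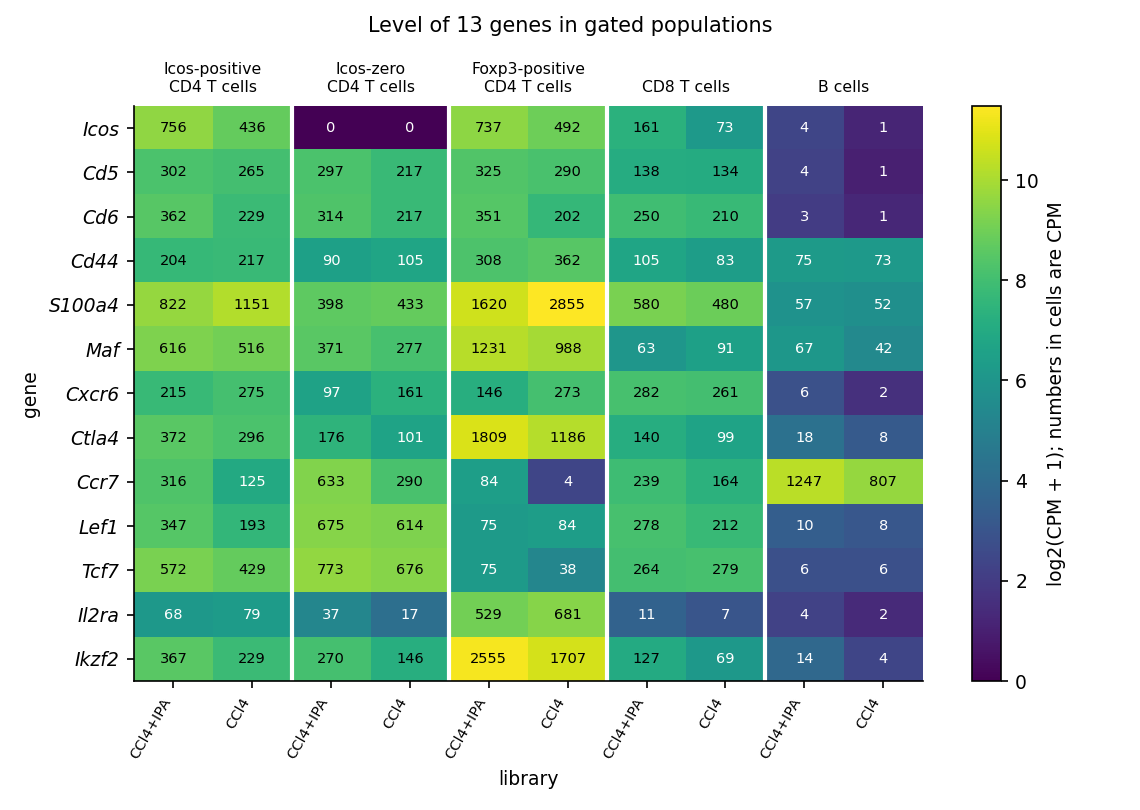
Levels of 13 genes (rows) as CPM of summed UMIs on a log colour scale in 5 gated populations (columns), each in the CCl4+IPA library and the CCl4 library. Icos-positive CD4 T cells had more Cd44, S100a4 and Ctla4 and less Ccr7 and Lef1 than Icos-zero CD4 T cells in both libraries, and less Ctla4 than Foxp3-positive cells. Icos is at 0 in Icos-zero cells by the rule that chose them.

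Of 5645 genes with at least 20 UMIs over members and Icos-zero cells in each library, 264 (4.68%) were at least 1.5 times as high in members in both libraries and 107 (1.9%) were at most 1 in 1.5 of the Icos-zero level in both. Higher at all in both libraries were 37.4% of genes and lower in both 22.9%, with all-gene median log2 ratios of 0.08 in the CCl4+IPA library and 0.09 in the CCl4 library. Members were somewhat deeper than Icos-zero cells (median 3376 against 3024.5 UMIs in the CCl4+IPA library and 4279 against 3554 in the CCl4 library). The part of this depth gap in the gene differences was not tested.

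Genes of naive T cells and of lymphoid homing were lower in members: all 14 measured genes of that list were lower in both libraries (22.9% of all genes were) and 10 were past 1.5-fold, with median log2 ratios of −0.92 in the CCl4+IPA library and −0.95 in the CCl4 library. Ccr7, the chemokine receptor for entry into lymph nodes, had 316 CPM in members and 633 CPM in Icos-zero cells of the CCl4+IPA library, and 125 CPM in members and 290 CPM in Icos-zero cells of the CCl4 library. Lef1, a transcription factor of naive T cells, was found after thinning in 36.2% of members and 57.0% of Icos-zero cells in the CCl4+IPA library, and in 16.9% of members and 45.9% of Icos-zero cells in the CCl4 library, against 1.19% and 1.27% of B cells. S1pr1, the receptor for exit from tissue into lymph, was 0.624 and 0.610 times the Icos-zero level. Igfbp4, a secreted binding protein of insulin-like growth factors, was 0.487 and 0.228 times the Icos-zero level, but with cells thinned and chosen again it was higher in members of the CCl4 library.

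All 16 genes of the effector-memory list were higher in members in both libraries (37.4% of all genes were), 8 of them past 1.5-fold, with medians of 0.76 and 0.80. Lgals1, the lectin galectin-1, was 2.70 and 2.10 times as high, and Anxa2, a membrane-binding annexin, 2.85 and 3.08 times as high, although Anxa2 turned lower in members after cells were thinned and chosen again. Of 12 measured costimulatory receptors and ligands 11 were higher in both libraries and 5 passed 1.5-fold, among them Slamf1, a self-binding receptor of lymphocytes, at 1.79 and 1.77 times. Tnfsf11, which encodes the cytokine RANKL, was 3.52 and 2.92 times as high. Of 10 tissue residency genes 9 were higher in both libraries, and Cxcr6, the receptor through which T cells are retained in liver, was 2.23 and 1.71 times as high. The residency median of 0.66 in the CCl4 library turned negative after thinning and choosing again.

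The Th17 list had the highest medians, 1.05 and 2.11, with 5 of 6 measured genes past 1.5-fold in both libraries, but it rests on few genes, among them Il17a, which came mostly from 1 cell in each library and was at 0 in Icos-zero cells. Immediate early and activation-induced genes were higher in both libraries for 16 of 20 (37.4% of all genes were) and lower in both for 0 (22.9% were). Their medians were 0.68 and 0.37. Other groups lay nearer to all genes. Of 21 antigen receptor signalling genes 8 were higher and 4 lower in both libraries, with medians of 0.07 and 0.12, close to those of all genes. The 22 interferon response genes were split, 8 higher and 9 lower. The ICOS pathway list, which holds the kinases, phosphatidylinositol regulators and RNA-binding repressors around ICOS, had 6 of 15 higher and 4 lower, with Maf as its 1 gene past 1.5-fold in both libraries. Regulatory T cell markers other than Foxp3 were higher in members for all 5 measured genes in both libraries (37.4% of all genes were). They summed to 708 CPM in members and 501 CPM in Icos-zero cells of the CCl4+IPA library, and 548 CPM in members and 311 CPM in Icos-zero cells of the CCl4 library. The same markers with Foxp3 included summed to 4997 CPM and 3772 CPM in Foxp3-positive CD4 T cells.

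**Figure D3:**
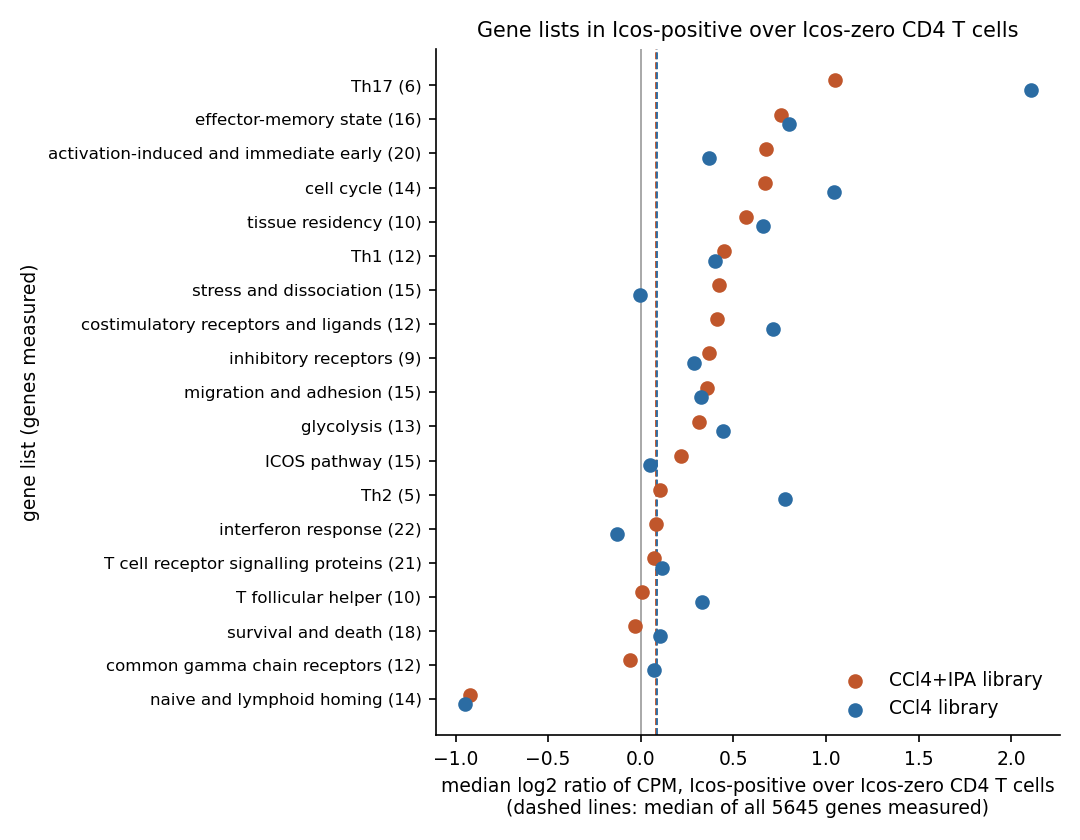
Median log2 ratio (x axis) of Icos-positive over Icos-zero CD4 T cells for each gene list (rows), in the CCl4+IPA library and in the CCl4 library. The naive and homing list lay lowest, at −0.92 and −0.95, the effector-memory list at 0.76 and 0.80, and the Th17 list, of 6 measured genes, highest at 1.05 and 2.11.

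Cell cycle genes were higher in members for all 14 measured genes in both libraries (37.4% of all genes were), 7 of them past 1.5-fold (4.68% were). Mki67, a protein of dividing cells, had 187 CPM in members and 26.4 CPM in Icos-zero cells of the CCl4+IPA library, and 183 CPM in members and 27.9 CPM in Icos-zero cells of the CCl4 library. Few cells carried this signal. In the CCl4+IPA library 20 of 161 members (12.4%) had an Mki67 UMI, against 1.27% of B cells, and in the CCl4 library 1 member held 64 of the 107 Mki67 UMIs. After thinning, Mki67 was found in 5.62% of members and 1.41% of Icos-zero cells in the CCl4+IPA library, and in 4.03% of members and 2.46% of Icos-zero cells in the CCl4 library, against 0.673% and 0.750% of B cells. With cells thinned and chosen again the cell cycle median was −0.032 in the CCl4+IPA library and −0.68 in the CCl4 library, so this difference did not hold under that setting. Hmgb2, a chromatin protein of cycling cells, was 2.49 and 2.08 times as high in members, but it turned lower in members of the CCl4 library when cells were thinned and chosen again, and 1 member there held 193 of 739 UMIs. The histone genes H2ac8 and H2ac24 were 6.65 and 8.66 times as high in the CCl4+IPA library and 13.2 and 4.56 times in the CCl4 library, and without cells carrying an Mki67 or Top2a UMI both were lower in members of the CCl4 library. Other genes at the top of this comparison were not of the cell cycle. Bcl2a1b, a survival protein of the Bcl2 family with near-identical copies among which reads can be split, was 2.89 and 3.45 times as high, Furin, a protease that activates transforming growth factor beta, 2.49 and 2.43 times, and Rora, a nuclear receptor of tissue and Th17 cells, 2.43 and 2.50 times.

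Naive and homing genes were higher, and regulatory T cell genes lower, in members than in Foxp3-positive CD4 T cells. Of 5068 measured genes 285 (5.62%) were at least 1.5 times as high in members in both libraries and 364 (7.18%) at most 1 in 1.5. Of the 14 naive and homing genes 12 were higher in members in both libraries (28.6% of all genes were) and 10 passed 1.5-fold. Tcf7, a transcription factor of naive and memory T cells, had 572 CPM in members and 74.7 CPM in Foxp3-positive cells of the CCl4+IPA library, and 429 CPM in members and 37.8 CPM in Foxp3-positive cells of the CCl4 library. Il18r1, a chain of the interleukin-18 receptor, was 4.37 and 3.62 times as high in members, and Cd40lg 9.86 and 13.2 times. Tnfsf8, the ligand of CD30, had 65 UMIs in members and 4 in Foxp3-positive cells of the CCl4+IPA library (ratio 7.75). In the CCl4 library it had 76 UMIs in members and 0 in Foxp3-positive cells, a ratio of 10.3 when the 0 is set to the floor of 3 UMIs. Il18r1 turned lower in members of the CCl4 library when cells were thinned and chosen again. The regulatory T cell markers, which the Foxp3 condition bears on, were lower in members for all 8 measured genes (31.3% of all genes were lower in both libraries). Il2ra was 0.129 and 0.115 times the level of Foxp3-positive cells, Ikzf2, the transcription factor Helios, 0.144 and 0.134 times, and Tnfrsf4, the costimulatory receptor OX40, 0.107 and 0.184 times. Klrg1, an inhibitory receptor of terminally differentiated cells, was the lowest named gene, at 0.0696 and 0.0699 times, and Il1rl1, the receptor of interleukin-33, stood at 0.0916 and 0.124 times.

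Foxp3-positive CD4 T cells also led in the effector-memory list, where 11 of 16 genes were lower in members in both libraries. S100a4 had 822 CPM in members and 1620 CPM in Foxp3-positive cells of the CCl4+IPA library, and 1151 CPM in members and 2855 CPM in Foxp3-positive cells of the CCl4 library. Icos itself had 756 CPM in members and 737 CPM in Foxp3-positive cells of the CCl4+IPA library, and 436 CPM in members and 492 CPM in Foxp3-positive cells of the CCl4 library. The members had been required to have Icos and the Foxp3-positive cells had not, and 78.0% and 75.6% of the Foxp3-positive cells carried it (57.0% and 53.7% after thinning).

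The members were not uniform. The chemokine receptor gene Cxcr6 divides them: 65 members (40.4%) of the CCl4+IPA library and 55 (43.7%) of the CCl4 library had a UMI of Cxcr6, against 1.04% and 0.668% of B cells, all cells unthinned. The ratio of the members' shares, CCl4+IPA over CCl4, was 0.925 (0.636 to 1.35), an interval that includes 1. The remaining 96 and 71 members had 0 Cxcr6 UMIs. Cxcr5 or Bcl6, a homing receptor and a transcription factor of T follicular helper cells, were found in 16 members of the CCl4+IPA library and 12 of the CCl4 library, with or without Cxcr6. Among Icos-zero CD4 T cells Cxcr6 was found in 15.3% in the CCl4+IPA library and 25.8% in the CCl4 library. After thinning, it was found in 23.8% of members and 10.6% of Icos-zero cells in the CCl4+IPA library, and in 35 of 124 members and 22 of 122 Icos-zero cells in the CCl4 library, against 0.475% and 0.326% of B cells.

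**Figure D4:**
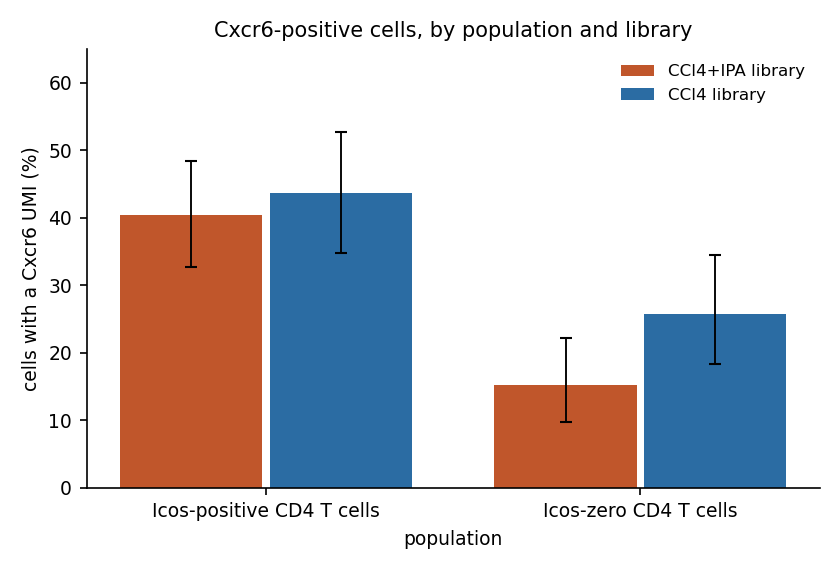
Share of cells, unthinned, with at least 1 Cxcr6 UMI (y axis, percent, with exact 95% binomial intervals) among Icos-positive and Icos-zero CD4 T cells (x axis) of the CCl4+IPA library and the CCl4 library. Cxcr6-positive cells were 40.4% and 43.7% of members and 15.3% and 25.8% of Icos-zero cells.

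Th1 and residency genes were higher, and naive genes lower, in Cxcr6-positive members than in Cxcr6-zero members. Of the Th1 list all 13 measured genes in the CCl4+IPA library and all 12 in the CCl4 library were higher in Cxcr6-positive members (51% and 53.6% of all genes were), with medians of 0.87 and 0.83. Of 10 tissue residency genes, a list that holds Cxcr6 itself, 9 were higher in the CCl4+IPA library and 10 in the CCl4 library, with medians of 1.33 and 1.32. Ifng, the cytokine interferon gamma, had 91 UMIs (347 CPM) in Cxcr6-positive members and 36 UMIs (94.0 CPM) in Cxcr6-zero members of the CCl4+IPA library, a ratio of 3.69 (2.48 to 5.59). In the CCl4 library it had 64 UMIs (269 CPM) in Cxcr6-positive members and 76 UMIs (219 CPM) in Cxcr6-zero members, a ratio of 1.23 with an interval that includes 1 (0.865 to 1.73). Ccl5, a chemokine of effector T cells, had 3256 CPM in Cxcr6-positive members and 647 CPM in Cxcr6-zero members of the CCl4+IPA library, and 3428 CPM and 1562 CPM in those classes of the CCl4 library. Maf was 1.58 and 2.15 times as high and Ctla4 2.15 and 2.54 times as high in Cxcr6-positive members. Icos was 1.31 times as high in the CCl4+IPA library (1.09 to 1.57), and in the CCl4 library the ratio of 0.939 had an interval that includes 1 (0.723 to 1.22). All 14 measured naive and homing genes were lower in Cxcr6-positive members of each library (49% of all genes were in the CCl4+IPA library and 46.4% in the CCl4 library). Lef1 had 145 CPM in Cxcr6-positive members and 486 CPM in Cxcr6-zero members of the CCl4+IPA library, and 50.3 CPM and 291 CPM in those classes of the CCl4 library. Ccr7 was 0.0993 times the Cxcr6-zero level in the CCl4+IPA library, and in the CCl4 library it had 3 UMIs in Cxcr6-positive members and 70 in Cxcr6-zero members.

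Members with 3 or more Icos UMIs (74 in the CCl4+IPA library, 32 in the CCl4 library) differed from those with 1 (62 and 66). They were deeper, at median UMIs of 4028 against 3135.5 in the CCl4+IPA library and 4936.5 against 4028.5 in the CCl4 library. In the CCl4+IPA library all 13 measured naive and homing genes were lower in them (43.4% of all genes were), with a median log2 ratio of −1.02, and 15 of 16 effector-memory genes were higher (56.6% of all genes were), with a median of 0.95. In the CCl4 library the same lists had medians of −0.43 and 0.38, with 11 of 13 lower (48.4% of all genes) and 10 of 16 higher (51.6%). Ctla4 was 4.46 times as high in them in the CCl4+IPA library (2.98 to 6.94) and 1.58 times in the CCl4 library (1.11 to 2.24). However, 1 member of the CCl4 library held 42 of the 173 Ctla4 UMIs of all its members, while the 2 classes had 67 and 68. No direction is drawn for Ctla4 there. S100a4 was 3.60 times as high in the CCl4+IPA library (2.79 to 4.71) and 0.826 times in the CCl4 library (0.690 to 0.985). In the CCl4 library 1 member held a large part of the S100a4 UMIs, as given further below. No ratio without that member is given, so no direction is drawn for S100a4 there. Bach2, a repressor that holds T cells in a resting state, was 0.0951 times the level of members with 1 Icos UMI in the CCl4+IPA library (5 and 32 UMIs). In the CCl4 library it had 4 and 19 UMIs, with an interval that includes 1 (0.0833 to 1.01). Cxcr6 and Ifng did not follow Icos, at 1.13 and 0.928 times for Cxcr6 and 0.675 and 0.935 times for Ifng.

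Genes of several helper lineages were detected in the members. After thinning, Tbx21, the Th1 lineage factor, was found in 4.38% of members and 4.23% of Icos-zero cells in the CCl4+IPA library, and in 4.84% of members and 4.92% of Icos-zero cells in the CCl4 library, against 1.03% and 0.554% of B cells. Cxcr3, the Th1 chemokine receptor, was found in 19.4% of members of the CCl4+IPA library and 22.6% of those of the CCl4 library, and Ifng in 17.5% and 18.5%. Gata3, the Th2 lineage factor that many T cells also use at a low level, was found in 20.0% and 22.6%. B cells had these 3 genes in 0.326% to 1.78% of cells. The Th2 cytokine Il4 had 4 UMIs in each library, Il5 had 1 UMI in the CCl4+IPA library and 0 in the CCl4 library, and Il13 had 0 in both. Rora had 203 and 113 UMIs, in 82 and 54 members. Il17a, the Th17 cytokine, came from 4 members in each library, with 77 of 86 UMIs in 1 cell of the CCl4+IPA library and 17 of 31 in 1 cell of the CCl4 library, and was at 0 in Icos-zero and Foxp3-positive CD4 T cells. Follicular helper genes were sparse: Bcl6 had 11 and 7 UMIs, Cxcr5 had 7 and 6, Pdcd1, which encodes the inhibitory receptor PD-1, had 13 and 25, and the helper cytokine Il21 had 4 and 2. After thinning, Bcl6 was found in 3.12% of members and 8.24% of B cells in the CCl4+IPA library, and in 2.42% of members and 6.82% of B cells in the CCl4 library. B cells use Bcl6 themselves and so give no background level for it. It was found in 0 of 142 and 0 of 122 thinned Icos-zero cells, which, at 3 counts of the total, allows shares of cells with a Bcl6 UMI of up to 2.11% and 2.46% at that depth. Unthinned, Bcl6 was found in 6.83% of members and 2.08% of Icos-zero cells in the CCl4+IPA library. In the CCl4 library the unthinned shares were 5.56% of members and 5.65% of Icos-zero cells, so Bcl6 was not absent from Icos-zero cells.

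Between the libraries, 1367 of the 6708 measured genes (20.4%) were at least 1.5 times as high in members of the CCl4+IPA library and 347 (5.17%) at most 1 in 1.5 of the CCl4 level. After each ratio was divided by the all-gene median, 765 genes (11.4%) and 696 genes (10.4%) were past 1.5-fold, a nearly even split. Of all genes 68.1% were higher in the CCl4+IPA library and 31.9% lower.

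Naive and homing genes had the highest median of the 19 lists. Of 15 genes, 14 were higher in members of the CCl4+IPA library (68.1% of all genes were) and 9 were past 1.5-fold (20.4% were). Their median log2 ratio was 0.75 and ranged from 0.53 to 0.88 over the alternative settings. Ccr7 had 204 UMIs (316 CPM) in members of the CCl4+IPA library and 73 UMIs (125 CPM) in those of the CCl4 library (ratio 2.53, 1.93 to 3.36). It was found in 56 and 28 members. Satb1, a chromatin organiser of T cells, had 705 CPM and 355 CPM (1.98, 1.68 to 2.35), and Lef1 347 CPM and 193 CPM (1.80, 1.43 to 2.27). Igfbp4 had the highest ratio of the named genes, 3.82 (2.66 to 5.63), with 156 UMIs in 38 members and 37 UMIs in 13 members. With cells thinned and chosen again it had 11 UMIs in the CCl4+IPA library and 16 in the CCl4 library, while thinning of the original members left 60 and 13. B cells, which carry Ccr7 at a high level, had a naive and homing median of 0.45, and the sum of B cell markers in members was 322 CPM in the CCl4+IPA library and 232 CPM in the CCl4 library. Their part in the naive gene difference was not tested.

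Other T cells showed values of the same sign. The naive and homing list had a median of 0.54 in Icos-zero CD4 T cells, 0.82 in Foxp3-positive CD4 T cells and 0.43 in CD8 T cells, beside all-gene medians of 0.23, 0.21 and 0.29. Within the classes of members it was 0.66 in Cxcr6-positive members, with 7 of 7 genes higher (64.3% of all genes were), and 0.66 in Cxcr6-zero members, with 14 of 15 higher (66.9% of all genes were).

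Immediate early genes, which T cells switch on within minutes of receptor signalling and also during tissue dissociation, were mostly higher in the CCl4+IPA library. Of 22 genes 21 were higher (68.1% of all genes were) and 7 were past 1.5-fold (20.4% were), with a median of 0.51. Egr1, a transcription factor of this group, had 245 UMIs (379 CPM) in members of the CCl4+IPA library and 109 UMIs (186 CPM) in those of the CCl4 library (ratio 2.04, 1.62 to 2.58). Nr4a1, an orphan nuclear receptor used as a reporter of antigen receptor signalling, had 771 CPM and 425 CPM (1.81, 1.55 to 2.12), and Rel, a nuclear factor kappa B subunit, 156 CPM and 82.0 CPM (1.91). The list's median in Icos-zero CD4 T cells was 0.08, and in Foxp3-positive CD4 T cells it was 0.75 and in CD8 T cells 0.56. Cxcr6-positive members had 20 of 20 measured genes higher in the CCl4+IPA library (64.3% of all genes were), with a median of 0.76. Egr1 in them had 190 UMIs (724 CPM) in the CCl4+IPA library and 28 UMIs (117 CPM) in the CCl4 library, while Cxcr6-zero members had 144 CPM and 233 CPM. The whole list in Cxcr6-zero members had 15 of 20 genes higher (66.9% of all genes were), with a median of 0.33 beside an all-gene median of 0.21. Egr1 was thus higher in the CCl4+IPA library in Cxcr6-positive members and lower in it in Cxcr6-zero members, and the difference between the classes was not tested. Heat shock and dissociation genes, a list that shares Fos and Jun with the immediate early list, had a median of −0.01, with 6 of 15 genes higher and 9 lower. That list holds mainly heat shock genes and gives no separate measure of immediate early genes during dissociation. The stress gene Hspa1a, an inducible heat shock protein, had 136 CPM and 244 CPM (0.558, 0.423 to 0.733).

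**Figure D5:**
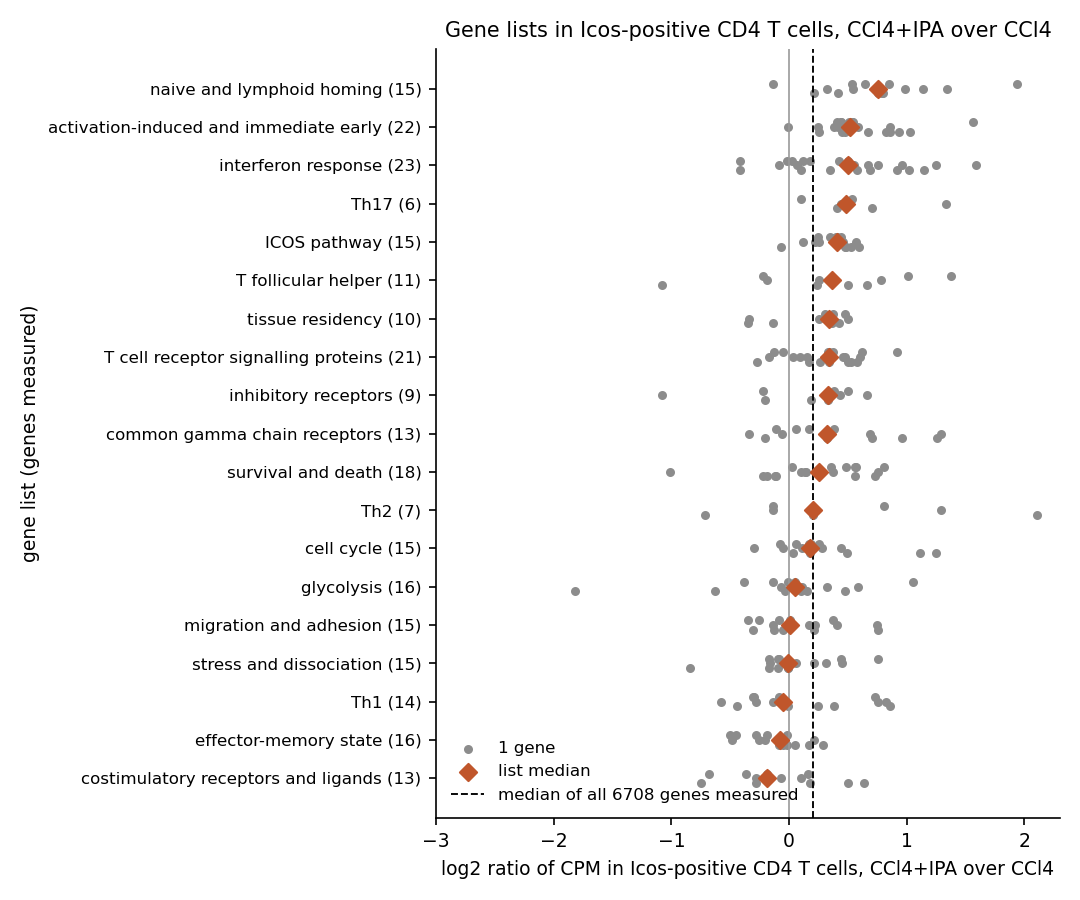
Log2 ratio of CCl4+IPA over CCl4 in Icos-positive CD4 T cells (x axis) for each gene (points) of each list (rows), with the list median marked and the all-gene median of 0.21 drawn as a line. The naive and homing list had a median of 0.75 and the costimulatory list one of −0.19.

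Of 23 interferon response genes 19 had more CPM in the CCl4+IPA library (68.1% of all genes did) and 9 were past 1.5-fold (20.4% were). Their median was 0.50, and 14 genes lay above the all-gene median and 9 below it. Trim30a, an interferon-induced ubiquitin ligase, had 191 CPM and 94.0 CPM (2.03, 1.46 to 2.84). Rsad2, which encodes the antiviral protein viperin, had 83 and 25 UMIs, but 35 of the 83 were in 1 cell, and without the highest member of each library its ratio of 3.01 became 2.58. It turned lower in the CCl4+IPA library when cells were thinned and chosen again. Isg15, an interferon-induced ubiquitin-like protein, went the other way, with 423 CPM and 565 CPM (0.748, 0.635 to 0.880). The list was thus mixed in direction.

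The ICOS pathway list had 14 of 15 genes higher in the CCl4+IPA library (68.1% of all genes were), with a median of 0.41. But only Rc3h2, a paralogue of the RNA-binding protein Roquin that represses Icos RNA, reached 1.5-fold, at 85.2 CPM and 56.4 CPM with an interval that includes 1 (1.51, 0.964 to 2.40). Its closest relative Rc3h1, Roquin itself, had 104 CPM and 78.6 CPM. Pik3r1, a regulatory subunit of phosphoinositide 3-kinase, had 225 CPM and 169 CPM (1.33, 1.02 to 1.73), and Maf 616 CPM and 516 CPM (1.19, 1.03 to 1.39). After the all-gene median was subtracted, the list stood at 0.20. Its median was 0.25 in Icos-zero CD4 T cells, 0.59 in Foxp3-positive CD4 T cells and 0.36 in CD8 T cells. Of 21 antigen receptor signalling genes 17 were higher (68.1% of all genes were), with a median of 0.34, or 0.13 relative to all genes. Txk, a Tec family kinase, had 367 CPM and 195 CPM (ratio 1.89).

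Effector-memory genes were mostly lower in the CCl4+IPA library. Only 4 of 16 were higher in members of the CCl4+IPA library and 12 were lower (31.9% of all genes were), none past 1.5-fold. Their median was −0.08, which is −0.28 relative to all genes. S100a4 had 822 CPM and 1151 CPM (0.714, 0.636 to 0.802), Vim, the filament protein vimentin, 421 CPM and 598 CPM (0.705, 0.599 to 0.828), and Itgb1, an integrin beta chain, 431 CPM and 589 CPM (0.731, 0.622 to 0.858). Cd44 had 204 CPM and 217 CPM, within its counting error. For S100a4, 1 member held 66 of 531 UMIs in the CCl4+IPA library and 1 held 125 of 674 in the CCl4 library. Icos-zero CD4 T cells had a median of −0.12 for this list, and Foxp3-positive cells one of −0.08.

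Costimulatory receptors and ligands other than Icos had a median of −0.19, with 5 of 13 higher (68.1% of all genes were) and 8 lower. The median ranged from −0.39 to 0.11 over the alternative settings. Cd226, an activating adhesion receptor, had 80 UMIs (124 CPM) in the CCl4+IPA library and 122 UMIs (208 CPM) in the CCl4 library (0.595, 0.443 to 0.795), and Tnfrsf18, the receptor GITR, 102 CPM and 164 CPM (0.623, 0.449 to 0.862). Tnfrsf1b, a receptor for tumour necrosis factor, was at 104 CPM and 66.6 CPM (1.56, 1.03 to 2.37). Of the 8 costimulatory genes with lower values in the CCl4+IPA library, 2 had an interval below 1. Of the 5 with higher values 2 had an interval above 1, Cd28 and Tnfrsf1b, as did Icos outside the list. Among 14 Th1 genes 6 were higher and 8 lower, with Ccl5 at 1708 CPM and 2321 CPM (0.736, 0.679 to 0.797) and Ifng at 197 CPM and 239 CPM (0.823, 0.642 to 1.05). Cxcr6, a gene of the residency list, was at 215 CPM and 275 CPM (0.783, 0.619 to 0.988). Il18r1, at 270 CPM and 152 CPM (1.77, 1.37 to 2.32), was the Th1 gene furthest in the other direction with an interval above 1.

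Receptors of the common gamma chain cytokines and their signalling genes had 9 of 13 higher (68.1% of all genes were), with a median of 0.32. That is 0.11 relative to all genes, and the median ranged from −0.045 to 0.37 over the alternative settings. As a list they were thus near all genes. Il4ra, the interleukin-4 receptor alpha chain, had 54 and 20 UMIs (2.45, 1.44 to 4.32), and Stat5a, which carries interleukin-2 and interleukin-7 signals, 50 and 19 UMIs (2.39, 1.38 to 4.29). Il7r, the interleukin-7 receptor, had 629 CPM and 504 CPM (1.25, 1.07 to 1.45), close to the all-gene shift. Among survival genes Bcl2, the antiapoptotic founder of its family, had 353 CPM and 214 CPM (1.65, 1.32 to 2.07). Lists near the all-gene median changed side once that median was subtracted: the Th2 median became −0.01, the cell cycle median −0.03, the glycolysis median −0.16 and the migration median −0.20. No direction is given for these lists. Ahr, the aryl hydrocarbon receptor to which indole metabolites can bind, had 26 and 22 UMIs (1.07, 0.584 to 1.98).

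Outside the lists, the highest ratios among genes with at least 100 CPM and 50 UMIs in the higher library included several that T cells use in signalling. Pde4b, a phosphodiesterase that breaks down cyclic AMP, had 146 UMIs (226 CPM) in members of the CCl4+IPA library and 52 UMIs (88.8 CPM) in those of the CCl4 library (2.55, 1.84 to 3.56), in 84 and 41 members. Vps37b, a subunit of the endosomal sorting complex ESCRT-I, had 1005 CPM and 420 CPM (2.39, 2.06 to 2.78). Gpr132, a receptor that inhibits lymphocyte proliferation, had 167 and 65 UMIs (2.33, 1.74 to 3.15), and Spry1, an inhibitor of receptor kinase signalling, 78 and 26 UMIs (ratio 2.72). Jakmip1, a microtubule-binding protein, had 65 and 19 UMIs (3.10) in 53 and 16 members. These counts were spread over many cells. The ratio of Il17a, 2.52, was not: without the highest member of each library 9 and 14 UMIs were left and the direction turned. Stmn1, a microtubule regulator of dividing cells, had 170 and 65 UMIs (2.37) and Rflnb, a filamin-binding protein, 73 and 29 (2.28), and both turned lower when cells were thinned and chosen again. Hmgb1-ps8, at a ratio of 2.29, is a pseudogene whose reads can belong to Hmgb1, so its value is uncertain.

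The lowest ratios belonged to ribosomal RNA and related genes. Rn18s-rs5 had 7890 UMIs in members of the CCl4+IPA library and 48329 in those of the CCl4 library, Mir6236, which lies in ribosomal RNA sequence, 166 and 599, and Lars2, a mitochondrial leucyl-tRNA synthetase, 190 and 956. The 18S gene stood at 0.148 of the CCl4 level in members and at 0.138 to 0.155 of it in Icos-zero, Foxp3-positive and CD8 T cells. The 18S difference was thus seen in all 4 gated T cell populations. Ctla2a, a cysteine protease inhibitor of activated T cells, had 44 and 93 UMIs (0.429, 0.293 to 0.620), and Ctsw, a protease of cytotoxic lymphocytes, 50 and 78 UMIs (0.581). The histone gene H1f5 had 62 and 132 UMIs, of which 24 and 72 were in 1 cell each.

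Markers of other cells were low in the members but not absent. Neutrophil markers summed to 122 CPM in the CCl4+IPA library and 94.0 CPM in the CCl4 library, with at most 4 UMIs in a cell, and B cell markers to 322 CPM and 232 CPM, against 13911 CPM and 11981 CPM in B cells. Monocyte and macrophage markers summed to 339 CPM and 389 CPM, with Fcgr1, C1qa and C1qc at 0 in both libraries, and Lyz2 at 0 by the conditions. Dendritic cell markers were concentrated, as 1 member held 124 of 319 UMIs in the CCl4+IPA library and 1 member held 172 of 349 in the CCl4 library. Gamma delta T cell markers summed to 43.4 CPM and 78.6 CPM, with 13 of 28 and 30 of 46 of these UMIs in 1 member of each library. Markers of type 2 and 3 innate lymphoid cells summed to 113 CPM and 111 CPM, with 17 of 73 and 14 of 65 UMIs in 1 member each. Whether these members held the Il17a UMIs was not tested. NKT and NK cell markers, which Th1 cells partly share, summed to 745 CPM and 779 CPM, and the conditions used do not set NKT cells apart from the members.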

How the data were processed

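Liver cells of 2 samples, CCl4+IPA and CCl4, were dissociated with collagenase IV, papain and DNase I, freed of red and dead cells and captured with 10x Genomics 3′ V3 chemistry, per the labels' protocols. The deposited matrices hold raw UMI counts per gene and barcode from Cell Ranger 7.1.0, per the file headers, and mm9 is named in the submitters' processing notes. The method by which cells were called was not found in the labels or file headers. No coordinates or sequences are printed.

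UMI counts of the 2 deposited libraries were filtered, gated and summed per population and library, and CPM is the sum per 1000000 UMIs of that population. A count of 0 was set to a floor of 3 UMIs in ratios, no ratio was given where both counts were at or under it, and genes with fewer than 20 UMIs over both populations were not measured. Because each group has 1 library, the planned comparisons are values with counting intervals at a 95% level. Cells were thinned to 1500 UMIs (seed 1), leaving out shallower cells, for the shares given as after thinning, and other shares are of unthinned cells. Scrublet marks were recorded and no cell was removed for them, as the conditions remove none. Ratios were checked on simulated data. The software was scanpy 1.11.5, scipy 1.17.1, numpy 2.4.6, matplotlib 3.10.9 and pandas 2.3.3 under Python 3.11.15.

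Named genes were, in each comparison, the 12 highest and 12 lowest ratios among genes with at least 100 CPM and 50 UMIs in the higher population, leaving out mitochondrial, ribosomal protein, receptor segment, gated and unnamed clone genes, and setting apart genes over 10 times as high in B cells, neutrophils, phagocytes, NK cells or plasmacytoid dendritic cells. Genes of the 19 lists are named for their role or their ratio. The members, the 19 gene lists and the 12 marker lists were chosen with earlier results of these data known. Members were divided by Cxcr6 and by the number of Icos UMIs, both set after values were seen, and some planned classes and named genes are not reported here.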

Additional observations from a re-analysis of the deposited data

Results flagged for a closer look

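4 named genes had a ratio of CCl4+IPA over CCl4 on one side of 1 in the members and on the other side in Icos-zero CD4 T cells, each with an interval that leaves out 1. The difference between the populations was not tested. Fos, an immediate early transcription factor, had a log2 ratio of 0.45 in members and a ratio of 0.898 in Icos-zero CD4 T cells, and its partner Jun a log2 ratio of 0.44 in members and a ratio of 0.675 in Icos-zero cells. Cxcl2, a neutrophil-attracting chemokine, had a log2 ratio of −2.14 in members and a ratio of 3.89 in Icos-zero cells, but 1 member of the CCl4 library held 132 of its 148 UMIs. Irf8, a transcription factor of myeloid cells and B cells, had a log2 ratio of 1.24 in members and a ratio of 0.478 in Icos-zero cells, and 1 member of the CCl4+IPA library held 46 of its 65 UMIs.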

How the results depend on the processing

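No paired analysis was possible because each group has 1 library. 1 library per group and counts of 126 to 161 members limit every value, and genes with few UMIs have wide intervals. Of 8 alternatives for the share of all barcodes 7 stayed within its interval, as did 7 of 8 for the share of Foxp3-zero CD4 T cells. With at least 2 Icos UMIs these ratios became 1.62 and 1.35. Of 1206 alternative list medians 1174 stayed within the main interval, 26 moved out of it and 6 turned sign. Of 1885 alternative values of named genes 1635 stayed within it, 215 moved out and 35 turned sign. A turn of sign was counted only where the whole main interval lay on 1 side of no change. Other changes of sign are thus among the values that stayed or moved. For CCl4+IPA over CCl4, list medians ranged from −0.57 to 0.24 for Th1 and from −0.28 to 0.01 for effector-memory genes.

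Counts past 1.5-fold moved most. For CCl4+IPA over CCl4 they were 302 higher and 106 lower with cells thinned to 1500 UMIs and chosen again, 574 and 85 with at least 50 UMIs, 2690 and 988 with no low-count filter, 852 and 604 with CPM computed without mitochondrial, ribosomal protein and ribosomal RNA genes, 765 and 696 after dividing by the all-gene median, and 793 and 214 with the original members thinned. For members over Icos-zero cells they were 41 and 35 (chosen again), 91 and 37 (50 UMIs), 675 and 303 (no filter) and 97 and 47 (original members thinned). For members over Foxp3-positive cells they were 36 and 41, 117 and 152, 631 and 806, and 144 and 165 under the same 4 settings. By construction, thinning and the minimum of 50 UMIs test fewer genes or UMIs, dropping the filter tests more genes, and the 2 rescalings shift all ratios of a comparison together.

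With cells thinned and chosen again, 41 of 61 and 34 of 44 cells had been members before. Log2 values counted as turned in sign under that setting were these. For CCl4+IPA over CCl4 they were Igfbp4 at −1.01, Rsad2 at −0.73, Stmn1 at −1.96, Rflnb at −0.28, Smpdl3a at 0.17 and Cxcl2 at 2.34. Over Icos-zero cells of the CCl4+IPA library they were cell cycle at −0.032, stress at −0.032, Anxa2 at −0.054 and Atf3 at −3.18. Over those of the CCl4 library they were tissue residency at −0.14, cell cycle at −0.68, Mki67 at −0.71, H2ac24 at −0.29, Anxa2 at −2.49, Hmgb2 at −0.49, Igfbp4 at 1.31, Rflnb at 0.56, Cmah at 0.63 and Foxp1 at 0.37. Over Foxp3-positive cells of the CCl4 library they were Il18r1 at −0.37, Il10 at 0.95 and Areg at 0.80. The cause was not tested.

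With the original members thinned, chosen after seeing the data, Atf3 was −0.29 (CCl4+IPA library) and Cd74 −0.023 (CCl4 library) over Icos-zero cells, and cell cycle was 0.18 over Foxp3-positive cells of the CCl4 library. Without Scrublet marks Atf3 was −0.65 and Cd74 −0.36 in the same comparisons. Without the S100a8 and Lyz2 conditions Plac8 was −0.45 in the CCl4+IPA library, and Gpx1 −0.059, Cd74 −1.76 and Cst3 −0.033 in the CCl4 library. With a CD3 sum of at least 1, Gpx1 was −0.0022, Cd74 −1.02 and Cst3 −0.31. With at least 2 Icos UMIs Cxcl2 was 0.95. Without cells holding an Mki67 or Top2a UMI, chosen after seeing the data, H2ac8 was −0.14 and H2ac24 −0.73 over Icos-zero cells of the CCl4 library, and cell cycle 0.37 over Foxp3-positive cells there. Without the highest member of each library, also chosen after seeing the data, Il17a was −0.77 and Cxcl2 0.19.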

Other observations

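Antigen receptor segments were read rarely by the 3′ chemistry. An alpha variable segment (Trav) had a UMI in 26 of 161 members of the CCl4+IPA library and 32 of 126 members of the CCl4 library, and a beta variable segment (Trbv) in 14 and 33. Of 35 Trbv segments in the files, 12 were seen in members of the CCl4+IPA library and 15 in those of the CCl4 library. Trav11 and Trav11n, which include the segment of invariant NKT cells, each had a UMI in 1 member, Trav11n in the CCl4+IPA library and Trav11 in the CCl4 library.

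The ligand of ICOS was found on other cells of the same livers. Icosl had 111 CPM in B cells of the CCl4+IPA library and 108 CPM in those of the CCl4 library, 27.2 CPM and 36.1 CPM in mononuclear phagocytes, and 24.0 CPM and 26.5 CPM in plasmacytoid dendritic cells.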
